A study of Mus musculus with 8 samples.

Results

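The genes described here build the sugar chain that is attached to asparagine residues of new secretory and membrane proteins, transfer it to them, and begin to trim it in the endoplasmic reticulum (ER). There were 34 of them, all found among the 14455 genes of the deposited per-library table that could be matched to 1 gene with a value of at least 10 in at least 1 library. The pathway was chosen from the values of Dpagt1, its opening enzyme, which stood higher after knockdown of Pcbp1 and lower with the drug CPX. Dpagt1 is therefore described without a test, and every count of genes called is over the other 33 members.

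The cells were Th1 cells, the interferon-gamma producing class of CD4+ helper T cells, made in culture from T cells of C57BL/6 mice with antibodies to CD3 and CD28, IL-12 and antibody to IL-4. In the knockdown experiment the cells were transduced with a scrambled hairpin (sh Scramble, 2 libraries) or with a hairpin against Pcbp1 (sh PCBP1, 2 libraries), and total RNA was the labelled material. Pcbp1 encodes a protein that binds poly(C) RNA and also carries iron. In the other experiment the cells received the solvent DMSO (2 libraries) or CPX, which the labels call an iron chelator (2 libraries), and the labelled material was polyA RNA. All 8 libraries share the strain and the IL-12 culture. The sources used here do not state the age of the mice, the hairpin sequences, the dose and time of CPX, or whether the 2 libraries of a group came from separate mice or cultures. The p-values therefore measure only the spread between these libraries, which may be technical. In bulk RNA of this kind, fewer cells that express a gene and less RNA per cell cannot be told apart.

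Values are given as reads per 1000000 of a library's total (RPM). Totals were 14174293 to 15518303 reads in the knockdown libraries and 19193784 to 19662145 rescaled units in the CPX libraries, whose original depth is unknown. The correlation of log2 values between the 2 libraries of a group, taken across genes, was 0.993, 0.992, 0.985 and 0.954 for scrambled, Pcbp1 hairpin, DMSO and CPX. Pcbp1 itself stood at 44.0 and 51.7 RPM with the scrambled hairpin and at 15.1 and 16.1 RPM with its own hairpin, a fall of 3.31-fold (edgeR quasi-likelihood test, log2 fold change -1.73, SE 0.12, adjusted p = 3.18e-05). With CPX it went from 506 and 538 RPM to 238 and 199 RPM (limma, log2 fold change -1.26, SE 0.20, adjusted p = 0.00613). All 9 T helper and Th1 markers looked for were found, among them Cd3e, Cd4, Tbx21 and Ifng. The summed RPM of Cd8a and Cd8b1, markers of CD8 T cells, was 90.5 and 92.0 in the library numbered 1 of each knockdown group and 11.9 and 11.6 in the library numbered 2, so it moved with the number and not with the hairpin. No gene of the neutrophil list (of 3) or the erythroid list (of 4) could be matched with a value of 10 in any library.

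As background, N-glycosylation starts on the cytosolic side of the ER membrane, where sugars are added in a fixed order to the lipid dolichol phosphate. The lipid-linked chain is flipped into the lumen, extended with mannose and glucose, and moved as a block onto nascent proteins by the oligosaccharyltransferase (OST). Glucosidases and mannosidases then remove the outer sugars while lectin chaperones read the state of folding. T cells depend on the pathway for the surface stability and clustering of receptors, including the T cell receptor.

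After Pcbp1 knockdown, 12 of the 33 members rose, 8 fell and 13 did not pass the test at an adjusted p under 0.05. Across the 11575 genes tested, 29.3% rose and 26.7% fell, so the share of members called lay near the background in both directions. The mitochondrial rRNA mt-Rnr2 took 17.6% of both scrambled totals and 19.9% and 19.3% of the Pcbp1 hairpin totals, and its part in the result was not tested. The median log2 fold change of the members was 0.16, against 0.00 for all genes tested. The genes that rose by most after knockdown were Alg5, Alg3, Ganab, Prkcsh and Pmm1, and those that fell by most were Dpm1, Dpm3 and Tusc3. With CPX, 18 of the 33 members fell, none rose (0 of 33) and 15 did not pass. Of the 11466 genes tested there, 24.8% fell and 19.9% rose, and the medians were -1.02 for the members and -0.12 for all genes tested. By limma, no member rose at an unadjusted p under 0.05 either (0 of 33). In the authors' deposited tables, at the same threshold, 11 of the 33 rose and 5 fell after knockdown, and 0 rose and 18 fell with CPX. With TMM scaling of the CPX experiment, the median over all genes tested was 0.00. There 17 members fell, none rose (0 of 33) and their median was -0.89, while 22.5% of all genes fell and 22.4% rose.

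The number of members that fell with CPX depended on single libraries, and the share of all genes that fell moved with it. Both shrank most when a DMSO library was left out. Such a fit leaves 1 library in a group, so its counts are not given. The 6 members called in every setting tried were Dolk, Alg2, Alg3, Rpn1, Ddost and Mogs. Other transcripts moved with CPX too. Of the 9 T helper and Th1 markers, Ifng stood at 14026 and 23804 RPM with DMSO and 1106 and 4983 RPM with CPX. The other 8 summed to 1013 and 1652 RPM with DMSO and 1306 and 1367 RPM with CPX, but they did not move together. Cd4 (137 and 226 against 405 and 261 RPM) and Cd3d (179 and 251 against 386 and 355 RPM) were higher with CPX. Lower were Cd3e (132 and 184 against 71.4 and 51.7 RPM) and Trac (200 and 218 against 142 and 108 RPM). So were Il12rb2 (69.4 and 172 against 24.1 and 31.1 RPM) and Cxcr3 (98.5 and 65.9 against 13.5 and 14.8 RPM). For Cd28 and Tbx21 the groups overlapped. With Ifng the 9 summed to 15039 to 25456 RPM and 2412 to 6350 RPM. The mitochondrial rRNA mt-Rnr2 took 0.0363% and 0.0340% of the DMSO totals and 0.204% and 0.151% of the CPX totals. The 3 dendritic cell markers Itgax, Flt3 and Zbtb46 summed to 2.95 to 3.22 RPM with DMSO and 22.8 to 26 RPM with CPX. Itgax (1.17 and 1.28 against 13.3 and 21.7 RPM) and Zbtb46 (1.68 and 1.79 against 8.91 and 4.26 RPM) were higher with CPX. Flt3 (0.102 and 0.153 against 0.521 and 0.104 RPM) overlapped between the groups. Of the macrophage list 1 of 5 genes was found, Emr1, at 0 to 0.0509 RPM with DMSO and 3.75 to 5.46 RPM with CPX. Of the fibroblast list 1 of 4 was found, Col1a1, at 0.203 to 0.460 RPM and 3.12 to 4.32 RPM. Of the B cell list 2 of 5 were found, Cd79a and Cd79b, which summed to 0.512 to 0.661 RPM and 2.29 to 2.70 RPM. Of the list of natural killer cells 1 of 4 was found, Eomes, at 1.78 to 2.51 RPM and 6.08 to 14.5 RPM. The part of these shifts in the result was not tested.

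**Figure D1:**
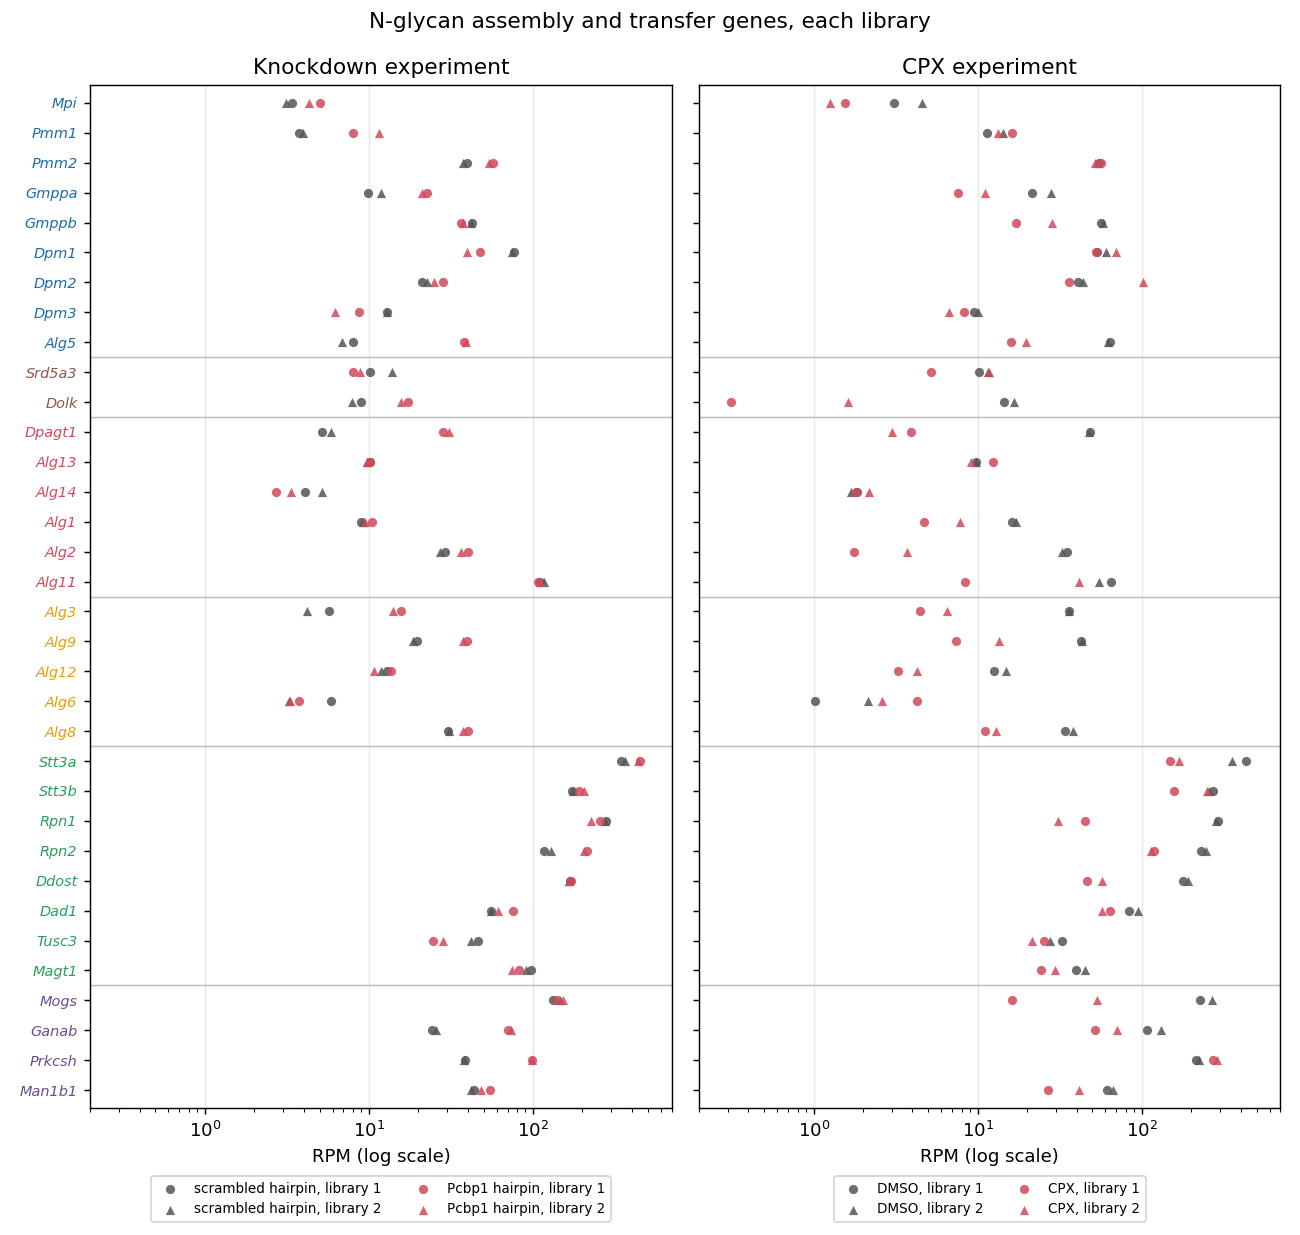
Level of each of the 34 genes in each library, in RPM on a log scale, with the knockdown experiment on the left and the CPX experiment on the right; circles are the libraries numbered 1, triangles those numbered 2, grey the control group and red the treated group. Gene names are coloured by role. In the right panel the red points of Dolk, Alg2, Alg3, Rpn1, Ddost and Mogs lie well to the left of the grey ones, and in the left panel those of Dpagt1, Alg5, Alg3 and Ganab lie to the right.

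Dpagt1 transfers the initial GlcNAc-phosphate to dolichol phosphate and is the target of tunicamycin. It stood at 5.15 and 5.87 RPM with the scrambled hairpin and at 28.4 and 30.8 RPM with the Pcbp1 hairpin. The edgeR estimate with TMM scaling was 4.97-fold higher (log2 fold change 2.31, SE 0.13). DMSO libraries held 48.0 and 47.6 RPM and CPX libraries 3.91 and 3.01 RPM, which is 12.3-fold lower on the log2(RPM + 0.5) scale (log2 fold change -3.62, SE 0.30). These values chose the pathway and are given as a description. In the authors' deposited table the log2 fold changes of Dpagt1 were 2.19 for knockdown and -3.69 for CPX.

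The other enzymes of the cytosolic face moved unevenly, with 1 of 5 rising and 1 of 5 falling after knockdown and 2 of 5 falling with CPX. Alg13 and Alg14 together add the second GlcNAc. Alg13 stood at 10.1 and 9.71 RPM (scrambled), 10.2 and 9.72 RPM (Pcbp1 hairpin), 9.71 and 9.72 RPM (DMSO) and 12.4 and 9.15 RPM (CPX), and passed neither test (adjusted p = 0.565 by edgeR for knockdown and 0.768 by limma for CPX). The groups overlapped in both experiments. Alg14, the membrane anchor of that pair, was the scarcer of the pair per kilobase in scrambled cells (2.27 against 5.49 RPM per kilobase). It stood at 4.09 and 5.17 RPM with the scrambled hairpin and 2.71 and 3.36 RPM with the Pcbp1 hairpin, and fell by 0.72 on the log2 scale (SE 0.24, adjusted p = 0.0331). That call was lost without scrambled library 2 (adjusted p = 0.171), without Pcbp1 hairpin library 1 (0.158) and with DESeq2 (0.138). With DMSO and CPX, Alg14 stood at 1.83 and 1.69 RPM and at 1.82 and 2.18 RPM (adjusted p = 0.703).

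Alg2, the mannosyltransferase that builds the branch point of the chain, had the largest fall of these 5 with CPX. Its levels were 34.8 and 32.7 RPM with DMSO and 1.77 and 3.69 RPM with CPX, an 11.1-fold fall (log2 fold change -3.47, SE 0.40, adjusted p = 0.00317). After knockdown Alg2 went from 29.1 and 27.0 RPM to 40.2 and 36.2 RPM, a small rise (log2 fold change 0.34, SE 0.10, adjusted p = 0.0224). The rise was lost without scrambled library 2 (adjusted p = 0.0953), without Pcbp1 hairpin library 1 (0.111) and with DESeq2 (0.0815). Alg1, which adds the first mannose, fell with CPX from 16.1 and 17.0 RPM to 4.69 and 7.80 RPM (log2 fold change -1.38, SE 0.36, adjusted p = 0.0274). That call was lost without DMSO library 1 (0.152) or DMSO library 2 (0.167). Alg1 stood at 8.96 and 9.15 RPM with the scrambled hairpin and 10.4 and 9.44 RPM with the Pcbp1 hairpin (adjusted p = 0.88), and exons of Eef2kmt on the other strand overlap it. Alg11, which completes the cytosolic mannoses, had a level of 22.9 RPM per kilobase of its longest annotated transcript in scrambled cells, the highest of this face there. In RPM it stood at 111 and 116 RPM against 108 and 110 RPM in the knockdown experiment (log2 fold change -0.17, adjusted p = 0.0563). With CPX its 2 libraries differed widely, 8.34 and 41.2 RPM against 64.8 and 54.9 RPM with DMSO, and it did not pass (log2 fold change -1.65, SE 0.71, adjusted p = 0.112). Without CPX library 2 it passed (-2.77, adjusted p = 0.0113), as it did in 1 limma fit of all 8 libraries (0.0483).

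The lumenal enzymes take their mannose and glucose from dolichol-linked donors. Of these 5, 2 rose after knockdown and none fell (0 of 5 by edgeR, also at an unadjusted p under 0.05), while 4 fell with CPX. Alg3, which starts the lumenal extension with mannose, stood at 5.71 and 4.19 RPM with the scrambled hairpin and at 15.7 and 14.0 RPM with the Pcbp1 hairpin (2.78-fold, log2 fold change 1.47, SE 0.18, adjusted p = 3.47e-04). With CPX it went from 35.8 and 36.1 RPM to 4.43 and 6.50 RPM (6.20-fold, log2 fold change -2.63, SE 0.32, adjusted p = 0.00357). Alg9, the mannosyltransferase that acts after Alg3, moved the same 2 ways. Its values were 19.5 and 18.5 RPM, then 39.7 and 37.3 RPM after knockdown (log2 fold change 0.91, SE 0.10, adjusted p = 1.94e-04). They were 42.3 and 43.0 RPM with DMSO and 7.35 and 13.5 RPM with CPX (log2 fold change -2.04, SE 0.36, adjusted p = 0.00886). Neither gene's groups overlapped in either experiment, but the CPX call of Alg9 was lost without DMSO library 1 (adjusted p = 0.0596) or DMSO library 2 (0.0576). Exons of other genes lie on the opposite strand of both, Eef1akmt4, Gm49333 and Vwa5b2 at Alg3 and 1110032A03Rik at Alg9, and whether the authors' counting used strand is not given in the sources used here.

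Alg12, another lumenal mannosyltransferase, stood at 12.8 and 11.8 RPM against 13.6 and 10.7 RPM in the knockdown experiment, where the groups overlapped (adjusted p = 0.511). With CPX it fell from 12.5 and 14.9 RPM to 3.28 and 4.26 RPM (log2 fold change -1.74, SE 0.33, adjusted p = 0.0102). Alg8, which adds the second glucose, fell with CPX from 34 and 38.3 RPM to 11.0 and 13.0 RPM (log2 fold change -1.55, SE 0.28, adjusted p = 0.00898). Without DMSO library 1 or 2 the CPX calls of Alg12 (adjusted p = 0.0676 and 0.0934) and Alg8 (0.0826 and 0.106) were lost. In the knockdown experiment Alg8 stood at 30.2 and 30.7 RPM against 40.1 and 37.7 RPM (log2 fold change 0.25, adjusted p = 0.0529). Alg6, which adds the first glucose, stood apart from the other lumenal enzymes. Its levels were low throughout, 5.86 and 3.28 RPM (scrambled), 3.74 and 3.29 RPM (Pcbp1 hairpin), 1.02 and 2.15 RPM (DMSO) and 4.27 and 2.60 RPM (CPX). It passed neither test (log2 fold change -0.48, adjusted p = 0.199 for knockdown, and 0.94, adjusted p = 0.116 for CPX), but passed as lower after knockdown without scrambled library 2 (-0.84, adjusted p = 0.0268).

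Among the sugar donor enzymes, 4 of 9 rose and 3 of 9 fell after knockdown, and 4 of 9 fell with CPX. Alg5, which makes dolichol phosphate glucose, had the largest change of the 9 in both experiments. It stood at 7.97 and 6.84 RPM with the scrambled hairpin and at 37.9 and 39.0 RPM with the Pcbp1 hairpin (4.81-fold, log2 fold change 2.27, SE 0.12, adjusted p = 1.49e-05). It went from 64.1 and 62.2 RPM with DMSO to 16.0 and 19.8 RPM with CPX (3.47-fold, log2 fold change -1.80, SE 0.26, adjusted p = 0.00491), a call lost without DMSO library 1 (0.057). The 3 subunits of dolichol phosphate mannose synthase did otherwise. Dpm1, the catalytic subunit, fell after knockdown from 77.0 and 74.4 RPM to 47.8 and 39.7 RPM (log2 fold change -0.90, SE 0.10, adjusted p = 1.88e-04), and Dpm3, which anchors it, from 12.8 and 12.9 RPM to 8.70 and 6.22 RPM (log2 fold change -0.89, SE 0.18, adjusted p = 0.00385). Dpm1 shares exon bases with Gm20716 on the same strand. Dpm2, the remaining subunit, stood at 21.2 and 22.6 RPM against 28.4 and 24.9 RPM (adjusted p = 0.21). None of the 3 passed with CPX. Dpm1 stood at 53.0 and 60.4 RPM (DMSO) and 52.9 and 69.1 RPM (CPX), and Dpm3 at 9.46 and 10 RPM and 8.23 and 6.65 RPM. Dpm2 stood at 41.0 and 44.1 RPM with DMSO and 36.0 and 101 RPM with CPX, so the 2 CPX libraries lay on opposite sides of the controls. Without CPX library 1, Dpm2 passed as higher (log2 fold change 1.24, adjusted p = 0.0173).

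GDP-mannose is made from mannose phosphate by Gmppb, with Gmppa as its regulatory partner. After knockdown Gmppa rose from 9.88 and 11.9 RPM to 22.6 and 21.1 RPM (log2 fold change 0.90, SE 0.13, adjusted p = 8.83e-04). Gmppb fell from 42.4 and 41.7 RPM to 36.5 and 37.5 RPM (log2 fold change -0.29, SE 0.09, adjusted p = 0.0232), and this call was lost without scrambled library 1 (0.0789), scrambled library 2 (0.0645) or Pcbp1 hairpin library 1 (0.0861). With CPX both partners fell, Gmppa from 21.3 and 27.8 RPM to 7.55 and 11.1 RPM (log2 fold change -1.36, SE 0.34, adjusted p = 0.024) and Gmppb from 56.6 and 58.1 RPM to 17.0 and 28.3 RPM (log2 fold change -1.37, SE 0.32, adjusted p = 0.0199). Without DMSO library 1 or 2 both CPX calls were lost (adjusted p = 0.111 and 0.201 for Gmppa, 0.123 and 0.128 for Gmppb), and that of Gmppa also without CPX library 1 (0.0602). Exons of Rnf123 and Gm20529 overlap Gmppb.

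Pmm1 and Pmm2, the phosphomannomutases, rose after knockdown and did not pass with CPX. Pmm1 went from 3.74 and 3.98 RPM to 7.99 and 11.6 RPM (log2 fold change 1.23, SE 0.23, adjusted p = 0.00296), and stood at 11.4 and 14.2 RPM with DMSO and 16.1 and 13.3 RPM with CPX (adjusted p = 0.64). Pmm2, whose loss causes the commonest human congenital disorder of glycosylation, went from 39.6 and 37.4 RPM to 57.4 and 53.7 RPM (log2 fold change 0.42, SE 0.08, adjusted p = 0.00393). Pmm2 held 55.1 and 54.0 RPM in the DMSO libraries and 56.5 and 51.8 RPM in the CPX libraries (adjusted p = 0.97), and exons of Tmem186 overlap it on the other strand. Mpi links fructose phosphate to mannose phosphate, upstream of both. It stood at 3.39 and 3.14 RPM against 5.03 and 4.34 RPM in the knockdown experiment (log2 fold change 0.41, adjusted p = 0.124). With CPX it fell from 3.10 and 4.55 RPM to 1.56 and 1.25 RPM (log2 fold change -1.17, SE 0.33, adjusted p = 0.0338). The call of Mpi was lost without DMSO library 1 (0.0935), DMSO library 2 (0.223), CPX library 1 (0.0625) or CPX library 2 (0.0853).

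Dolk, the kinase that makes dolichol phosphate, rose after knockdown and fell with CPX. It stood at 8.96 and 7.89 RPM with the scrambled hairpin and at 17.3 and 15.7 RPM with the Pcbp1 hairpin (log2 fold change 0.87, SE 0.14, adjusted p = 0.00121), a call lost in 1 limma fit of all 8 libraries (0.141). With DMSO it stood at 14.5 and 16.7 RPM and with CPX at 0.313 and 1.61 RPM, a 12.3-fold fall on the log2(RPM + 0.5) scale (log2 fold change -3.62, SE 0.51, adjusted p = 0.00477). Srd5a3, a polyprenol reductase needed for dolichol, fell after knockdown from 10.2 and 13.9 RPM to 7.99 and 8.81 RPM (log2 fold change -0.63, SE 0.18, adjusted p = 0.0216). That call was lost without scrambled library 2 (0.15) or Pcbp1 hairpin library 1 (0.0802). Its CPX libraries, at 5.16 and 11.7 RPM, overlapped the DMSO libraries at 10.2 and 11.6 RPM (adjusted p = 0.442).

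Of the 8 OST subunits in the set, 2 rose and 3 fell after knockdown, and 4 fell with CPX. Per kilobase of the longest annotated transcript, the highest of the 34 in scrambled cells were Ddost at 78.6, Rpn1 at 76.1 and Stt3a at 60.3 RPM per kilobase, while Alg6 (1.48), Mpi (1.83), Alg14 (2.27) and Dpagt1 (2.50) were the scarcest. Stt3a is the catalytic subunit of the complex at the translocon. Its values were 344 and 363 RPM against 446 and 438 RPM after knockdown (log2 fold change 0.21, SE 0.07, adjusted p = 0.0251), and 433 and 356 RPM with DMSO against 149 and 169 RPM with CPX (log2 fold change -1.30, SE 0.21, adjusted p = 0.00656). The knockdown call of Stt3a was lost without scrambled library 1 (0.165), Pcbp1 hairpin library 1 (0.0608) or Pcbp1 hairpin library 2 (0.0794), and the CPX call without DMSO library 1 (0.0824). Stt3b, the catalytic subunit of the complex that acts after translation, stood at 172 and 175 RPM against 190 and 206 RPM (adjusted p = 0.34), and at 272 and 257 RPM against 157 and 249 RPM with CPX (log2 fold change -0.41, adjusted p = 0.257), where it passed without CPX library 2 (-0.75, adjusted p = 0.0248). Whether the CPX effects of Stt3a and Stt3b differ was not tested.

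The oxidoreductase subunits that go with Stt3b both fell after knockdown. Tusc3 went from 46.0 and 42.1 RPM to 24.6 and 28.4 RPM (log2 fold change -0.84, SE 0.11, adjusted p = 5.16e-04). Magt1 went from 96.9 and 90.5 RPM to 82.0 and 75.0 RPM (log2 fold change -0.36, SE 0.07, adjusted p = 0.00372), a call lost in 1 limma fit of all 8 libraries (0.27). Neither passed with CPX. Tusc3 stood at 32.7 and 27.5 RPM with DMSO and 25.5 and 21.3 RPM with CPX (adjusted p = 0.33), and Magt1 at 39.7 and 45.3 RPM and 24.4 and 29.6 RPM (adjusted p = 0.0932). Magt1 passed as lower with CPX without CPX library 2 (log2 fold change -0.78, adjusted p = 0.046) and in the fit of all 8 (0.00947).

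Among the structural subunits of the complex, Rpn1 fell most with CPX, from 292 and 284 RPM to 45.0 and 31.0 RPM (7.62-fold, log2 fold change -2.93, SE 0.25, adjusted p = 0.00242). After knockdown it fell slightly, from 277 and 276 RPM to 255 and 226 RPM (log2 fold change -0.31, SE 0.07, adjusted p = 0.00738), a call lost in 1 limma fit of all 8 libraries (0.447). Rpn2 rose after knockdown, from 117 and 128 RPM to 213 and 205 RPM (log2 fold change 0.66, SE 0.07, adjusted p = 1.61e-04), and fell with CPX from 228 and 245 RPM to 119 and 114 RPM (log2 fold change -1.02, SE 0.19, adjusted p = 0.0103). The CPX call of Rpn2 was lost without DMSO library 1 (0.107) or 2 (0.132). Exons overlap on the other strand at Rpn1 (Mir6376) and Rpn2 (Mroh8). Ddost, which binds in the core of the complex, stood at 167 and 166 RPM against 170 and 166 RPM in the knockdown experiment (adjusted p = 0.181). It fell with CPX from 179 and 191 RPM to 46.4 and 57.4 RPM (3.56-fold, log2 fold change -1.83, SE 0.22, adjusted p = 0.0035). Dad1, a small subunit, passed neither test, with 55.3 and 55.2 RPM against 75.5 and 61.3 RPM (adjusted p = 0.127) and 83.6 and 94.5 RPM against 64.2 and 57.5 RPM (adjusted p = 0.0938). It passed as higher after knockdown without Pcbp1 hairpin library 2 (log2 fold change 0.31, adjusted p = 0.0233) and as lower with CPX in the fit of all 8 (0.0182).

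Of the 4 trimming enzymes, 2 rose after knockdown, none fell (0 of 4 by edgeR, also at an unadjusted p under 0.05), and 3 fell with CPX. Glucosidase II is made of the catalytic Ganab and the lectin-like Prkcsh, and both rose after knockdown. Ganab went from 24.3 and 25.6 RPM to 70.0 and 73.6 RPM (2.68-fold, log2 fold change 1.42, SE 0.09, adjusted p = 2.31e-05). Prkcsh went from 38.4 and 38.1 RPM to 98.1 and 98.5 RPM (2.39-fold, log2 fold change 1.26, SE 0.07, adjusted p = 1.57e-05). With CPX, Ganab fell from 107 and 130 RPM to 51.9 and 70.9 RPM (log2 fold change -0.96, SE 0.26, adjusted p = 0.0302). Prkcsh stood at 213 and 222 RPM with DMSO and 273 and 287 RPM with CPX, without overlap, and did not pass (log2 fold change 0.37, SE 0.18, adjusted p = 0.157), though it passed in 1 limma fit of all 8 libraries (0.0242). The CPX call of Ganab was lost without DMSO library 1 (0.136), DMSO library 2 (0.246) or CPX library 1 (0.0583).

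Mogs, glucosidase I, acts before Ganab on the outermost glucose. It stood at 133 and 146 RPM against 140 and 152 RPM in the knockdown experiment, where the groups overlapped (adjusted p = 0.66). With CPX it fell from 226 and 266 RPM to 16.2 and 53.0 RPM (8.22-fold, log2 fold change -3.04, SE 0.55, adjusted p = 0.00902). Man1b1, an ER mannosidase that marks glycoproteins for disposal, stood at 43.6 and 41.8 RPM against 54.6 and 48.1 RPM after knockdown (adjusted p = 0.169). It went from 61.5 and 66.3 RPM to 26.9 and 41.5 RPM with CPX (log2 fold change -0.92, SE 0.29, adjusted p = 0.049). This fall of Man1b1 was lost with TMM scaling (adjusted p = 0.057) and without DMSO library 1 (0.223) or 2 (0.268), and AA543186 overlaps its exons on the other strand.

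The knockdown and CPX experiments share no library, and the difference between their effects was tested in 1 limma fit of all 8 libraries. The experiments also differ in RNA material (total or polyA), in hairpin transduction and in the kind of values. These cannot be told apart from the difference between hairpin and drug. Mean control levels differed widely for some members (Alg5, 7.41 RPM scrambled and 63.2 RPM DMSO) and little for others (Ddost, 167 and 185 RPM). The knockdown effect was higher than the CPX effect for 22 of the 33 members and lower for 1, Dpm1, with 10 not passing. Over the 10430 genes tested, 35.2% were higher and 16.1% lower. The median difference was 1.5 on the log2 scale for the members and 0.40 for all genes tested. Genes of GPI anchor assembly and O- and C-mannosylation, described below, stood close to the members. Of these, 16 of 28 were higher and 2 lower, with a median of 1.33 (0.97 with TMM scaling). The other related lists described below had medians of -0.35 to 0.72. With TMM scaling the median over all genes was 0.04, and 19 members were higher and 3 lower with a median of 1.15, against 27.3% and 23.4% of all genes. The members with the largest differences were Dolk (4.55, SE 0.58, adjusted p = 7.74e-04), Alg3 (4.14, SE 0.34, 1.44e-04) and Alg5 (4.10, SE 0.25, 7.04e-05). Alg2 (3.91), Mogs (3.10) and Alg9 (3.04) followed. The value for Dpagt1 was 5.94, given without a test because the opposite signs of its effects chose the pathway. Dpm1 differed the other way (-0.89, SE 0.25, adjusted p = 0.0221), a call lost without scrambled library 1 (0.0814), scrambled library 2 (0.0701), Pcbp1 hairpin library 2 (0.0954) or DMSO library 1 (0.0721).

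Set side by side, 9 members rose after knockdown and fell with CPX: Gmppa, Alg5, Dolk, Alg2, Alg3, Alg9, Stt3a, Rpn2 and Ganab. Gmppb and Rpn1 fell in both experiments. Pmm1, Pmm2 and Prkcsh rose after knockdown without passing with CPX, and Dpm1, Dpm3, Srd5a3, Alg14, Tusc3 and Magt1 fell after knockdown without passing with CPX. Mpi, Alg1, Alg12, Alg8, Ddost, Mogs and Man1b1 fell with CPX without passing after knockdown, and Dpm2, Alg13, Alg11, Alg6, Stt3b and Dad1 passed neither test. No member rose with CPX, so none fell after knockdown and rose with the drug (0 of 33). How many of all genes tested showed each pattern was not counted, so these counts have no background beside them. Some genes named below from the related lists also rose after knockdown and fell with CPX (Pgm3, B4galt3, Hyou1 and Pigb), while Pigp went the other way. A rise after knockdown with a fall with CPX is also the pattern by which Dpagt1 chose the pathway. Of the 9 members with it, only Alg3 kept both calls in every setting tried.

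**Figure D2:**
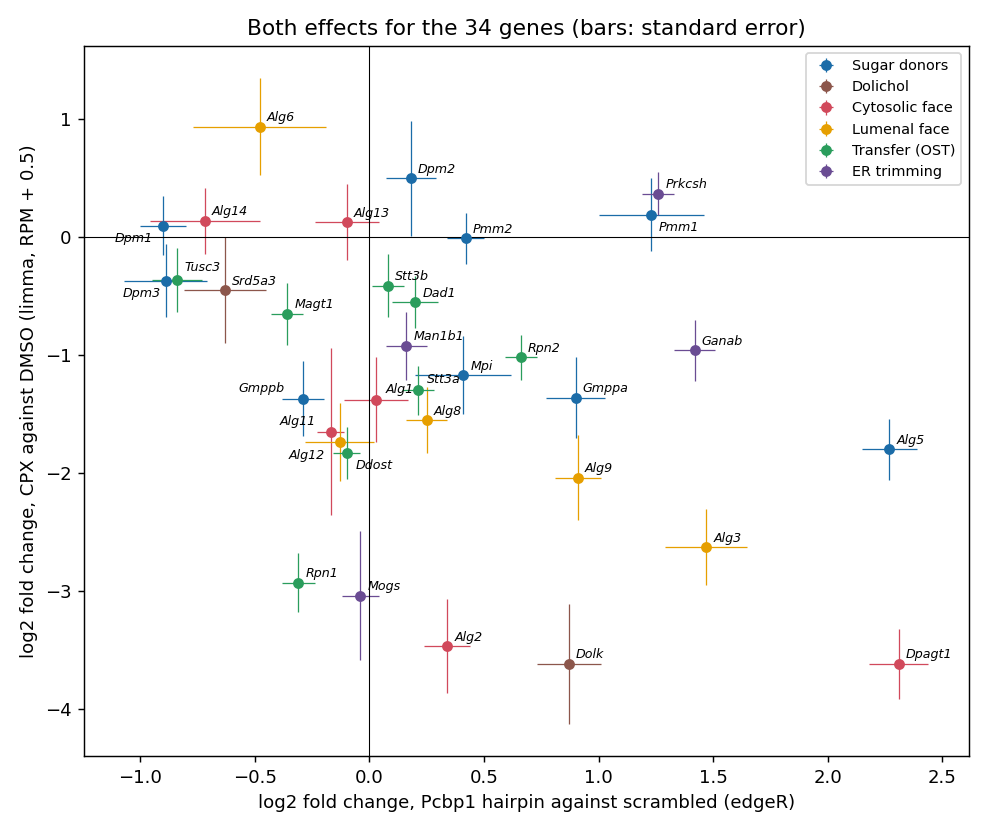
Log2 fold change of each of the 34 genes after Pcbp1 knockdown (horizontal axis, edgeR) and with CPX (vertical axis, limma on log2(RPM + 0.5)), coloured by role, with bars of 1 standard error. Alg5, Alg3, Alg9, Gmppa, Ganab, Dolk and Dpagt1 lie at the lower right, with Dpagt1 at 2.31 and -3.62, while Rpn1 and Mogs lie low on the vertical axis with little change on the horizontal one.

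Promoter sequence was looked up for the members, since 18 of them fell with CPX. RefSeq promoters (GRCm38.p6, from 250 bases before to 50 bases after the gene's start) were found for 29 of the 34, with 30 promoters in all. Both strands were searched for motifs of the ER stress, amino acid, growth and hypoxia responses. The ER stress element, written as CCAAT, then 9 bases of any kind, then CCACG, was in 1 of the 30 promoters, that of Alg12 (3.33%, against 0.119% of the 32851 promoters in the table). The ATF6 or XBP1 core TGACGTG was in those of Dpm2 and Mogs (6.67% against 2.01%). The ATF4 core TGATGNAAN was in none (0 of 30, against 3.95%). The E-box CACGTG was in 6, those of Alg1, Dolk, Dpm2, Magt1, Prkcsh and Srd5a3 (20% against 7.15%). The hypoxia core, ACGTG or GCGTG, which is part of TGACGTG and of CACGTG, was in 22 of 30 (73.3% against 43.8%). Base composition was not taken into account, and a match is a description of the letters only. Members that did not pass with CPX carried motifs too: the E-box in Dpm2, Magt1, Prkcsh and Srd5a3, and TGACGTG in Dpm2. The hypoxia core was in members that fell, such as Rpn1 and Ddost, and in others, such as Pmm1 and Pmm2. Whether a motif goes with the fall was not tested. As examples, promoters of 3 members that fell are shown, each with 1 kind of motif in capitals. They are Alg12 (chr15:88819269-88819568, minus strand, ER stress element beginning at position -220 from the start), Mogs (chr6:83115256-83115555, plus strand, ATF6 or XBP1 core at position -34) and Dolk (chr2:30286305-30286604, minus strand, E-box, the first at position -43). The Dolk promoter also holds GCGTG outside its E-boxes, left in lower case.
Alg12: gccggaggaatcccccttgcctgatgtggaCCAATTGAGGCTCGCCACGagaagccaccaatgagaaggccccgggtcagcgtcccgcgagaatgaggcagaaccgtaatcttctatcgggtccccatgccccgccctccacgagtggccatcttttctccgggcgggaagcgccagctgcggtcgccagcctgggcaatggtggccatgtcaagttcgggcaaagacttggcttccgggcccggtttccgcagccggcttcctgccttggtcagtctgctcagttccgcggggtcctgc
Mogs: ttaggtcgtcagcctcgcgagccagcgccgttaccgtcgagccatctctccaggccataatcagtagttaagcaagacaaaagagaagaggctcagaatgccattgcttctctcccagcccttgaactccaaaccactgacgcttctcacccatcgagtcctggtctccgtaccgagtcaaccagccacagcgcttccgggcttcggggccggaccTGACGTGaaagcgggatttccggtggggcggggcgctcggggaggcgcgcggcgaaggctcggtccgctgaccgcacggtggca
Dolk: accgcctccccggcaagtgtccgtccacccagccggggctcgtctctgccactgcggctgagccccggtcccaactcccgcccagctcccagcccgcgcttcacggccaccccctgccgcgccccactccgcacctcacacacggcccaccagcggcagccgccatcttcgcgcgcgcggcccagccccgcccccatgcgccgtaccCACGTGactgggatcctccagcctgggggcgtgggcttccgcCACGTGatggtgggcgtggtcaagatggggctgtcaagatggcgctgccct

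Genes that feed the pathway or act beside it were described by 7 further lists, and these counts stand next to the background shares given above. Of 10 other genes of dolichol supply, 3 rose and 2 fell after knockdown, and 2 rose and 2 fell with CPX. Dhdds, a subunit of the cis-prenyltransferase that makes the dolichol chain, rose after knockdown from 6.07 and 5.38 RPM to 26.4 and 26.6 RPM (log2 fold change 2.10, adjusted p = 2.01e-05), and Ggps1, which makes geranylgeranyl diphosphate, fell (-0.63, adjusted p = 3.87e-04). With CPX, Mvd of the mevalonate pathway rose (2.15, adjusted p = 0.0284) and Dolpp1, a dolichyl pyrophosphate phosphatase, fell from 17.7 and 19.0 RPM to 3.49 and 3.74 RPM (-2.20, adjusted p = 0.00449). Of 7 genes of UDP-GlcNAc synthesis, 1 rose and 3 fell after knockdown, and 1 rose and 2 fell with CPX. Gnpnat1, an acetyltransferase of that route, fell in both (-0.80 and -1.54, adjusted p = 1.32e-04 and 0.0108). Pgm3, its mutase, rose after knockdown (0.83, adjusted p = 0.021) and fell with CPX (limma, -1.30, adjusted p = 0.0253). Uap1l1 rose with CPX (2.61, adjusted p = 0.00561).

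The 4 other OST subunits tested all fell after knockdown (4 of 4, median log2 fold change -0.65) and 1 of 4 fell with CPX. Ostc, which goes with the Stt3a complex, went from 213 and 192 RPM to 99.8 and 88.9 RPM after knockdown (-1.21, adjusted p = 2.69e-05), and Ost4, a small subunit, went from 57.7 and 62.0 RPM to 16.3 and 31.5 RPM with CPX (-1.38, adjusted p = 0.029). Of 15 genes of the calnexin cycle and glycoprotein quality control, 5 rose and 5 fell after knockdown, and 3 fell with CPX. Os9, a lectin of ER disposal, rose after knockdown (1.34, adjusted p = 4.24e-05) and the deglycosylase Ngly1 fell (-0.68, adjusted p = 5.52e-04). Lman1, a cargo receptor for glycoproteins, fell with CPX from 84.4 and 103 RPM to 8.75 and 16.0 RPM (-2.92, adjusted p = 0.00357). Of 20 Golgi processing genes tested, 6 rose and 3 fell after knockdown, and 5 rose and 6 fell with CPX. The galactosyltransferase B4galt3 rose after knockdown (0.86, adjusted p = 0.00164) and the sialyltransferase St3gal6 fell, from 6.14 and 6.56 RPM to 3.29 and 3.57 RPM (adjusted p = 0.00317). B4galt3 fell with CPX (limma, -1.28, adjusted p = 0.0331). With CPX, Man2a1, Golgi mannosidase II, rose from 52.1 and 50.3 RPM to 334 and 265 RPM (2.53, adjusted p = 0.00242), while Slc35a3, a UDP-GlcNAc transporter, fell (-1.92, adjusted p = 0.0072).

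GPI anchor assembly and O- and C-mannosylation draw on the same dolichol phosphate mannose. Of 29 such genes, 7 rose and 10 fell after knockdown, with a median of -0.06. With CPX 14 of 28 fell and 1 rose, with a median of -1.23. Pigb, a GPI mannosyltransferase, fell with CPX from 13.1 and 18.2 RPM to 1.77 and 0.780 RPM (-3.23, adjusted p = 0.00391) and rose after knockdown (1.19, adjusted p = 0.00475). Pigp, a subunit of the enzyme that starts GPI synthesis, fell after knockdown (-1.42, adjusted p = 0.00517) and rose with CPX (1.91, adjusted p = 0.00865). Dpy19l3, a C-mannosyltransferase, rose after knockdown (1.28, adjusted p = 0.0043). Of 18 regulators of the unfolded protein response and ER chaperones, 5 rose and 7 fell after knockdown, and 4 rose and 8 fell with CPX. The sensor Ern1 rose after knockdown (1.07, adjusted p = 1.07e-04) and the co-chaperone Dnajc3 fell (-0.82, adjusted p = 5.54e-05). With CPX, Ddit3, which encodes the stress factor CHOP, rose from 8.24 and 10.2 RPM to 146 and 207 RPM (4.17, adjusted p = 0.00241). The ER chaperone Hyou1 fell from 442 and 434 RPM to 78.9 and 97.1 RPM (-2.32, adjusted p = 0.00246), and it rose after knockdown (edgeR, 0.49, adjusted p = 3.98e-04).

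**Figure D3:**
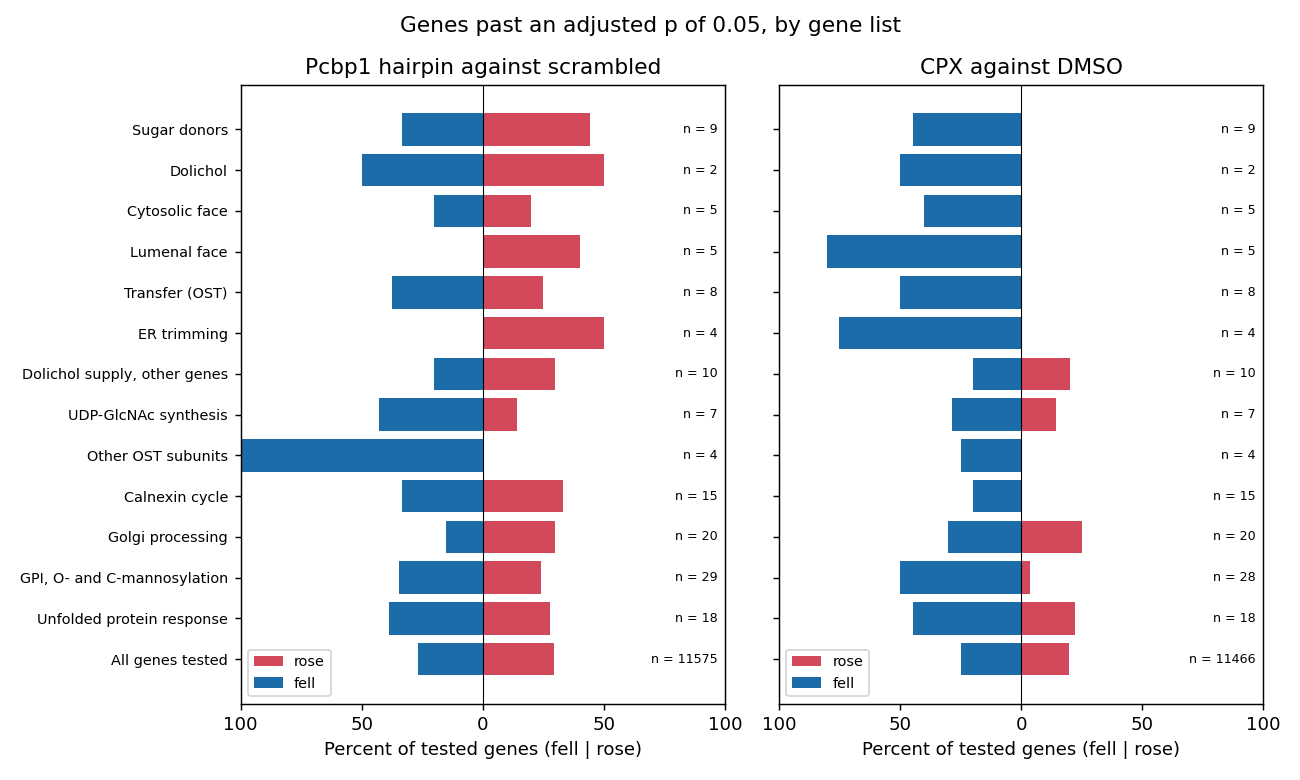
Percent of the tested genes of each list that rose (red, to the right) or fell (blue, to the left) at an adjusted p under 0.05, after Pcbp1 knockdown on the left and with CPX on the right, with the number tested beside each bar pair; the first 6 lists are the roles of the members without Dpagt1. With CPX the bars of these 6 extend to the left alone, as do those of the other OST subunits and the calnexin cycle. The bars of all genes tested extend to 24.8% falling and 19.9% rising.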

How the data were processed

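RNA-seq libraries of mouse Th1 cells were analysed, 2 each of scrambled hairpin, Pcbp1 hairpin, DMSO and CPX. Tools listed in the submitters' processing notes are STAR, HTSeq, cutadapt and DESeq, and the build listed is mm9; no role or version is listed. The authors' deposited per-library table, named as RPM, held whole-number counts in the knockdown columns. In the CPX columns the authors' deposited values are treated as a score, since they are whole numbers that equal counts times 1 common factor after rounding. The authors' deposited DESeq2 tables held mean normalized signal, log2 fold changes and p-values. From the row of Ins1 on, row labels of the per-library table carried the preceding gene's values. They were set right by matching each row's values to the mean signal in the authors' tables. Of the 7247 matched rows after that point 7246 carried another gene's label, of 7208 before it none did (7208 of 7208 matched), and 350 rows that matched more than 1 gene were left out. Of the 34 members, 13 had carried another label.

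Values were divided by library totals to give RPM. A gene entered a test when 2 or more of an experiment's 4 libraries held 1 RPM or more (in both experiments for the difference). Calls required an adjusted p under 0.05, by the Benjamini-Hochberg method across every gene tested. Knockdown counts were tested with edgeR 4.0.16 (quasi-likelihood, TMM scaling). CPX values and the difference between the effects were tested with limma 3.58.1 (trended spread) on log2(RPM + 0.5), so a fold change understates the change of low genes. R 4.3.3 was used. The fits were also run on simulated counts, whose outcome is not given here. Their spread was fixed in advance and the rescaled CPX totals were taken as depth. That run therefore cannot show how the fits behave on the CPX values. Transcript lengths and exon overlaps came from GENCODE M21 (GRCm38), promoters from RefSeq. Every member was named, with Pcbp1 and, of each related list, the called gene with the largest rise and the largest fall in each comparison. The members and lists were chosen with earlier results of these data known. Alternatives were other filters, pseudocounts, scalings and tools, a replicate block, 1 fit of all 8 libraries and leaving out each library. Removal of transcript length and GC content, known for 14004 of 14455 genes (96.9%), was added after seeing the data.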

Additional observations from a re-analysis of the deposited data

How the results depend on the processing

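Of the members called, 12 of 20 after knockdown, 6 of 18 with CPX and 16 of 23 for the difference were called in every setting run. In 1 limma fit of all 8 libraries, 3 members fell after knockdown and 1 (Prkcsh) rose with CPX. The difference was lower for 3 members with each of TMM, median ratio and quantile scaling. Leaving out each library in turn gave 5 to 8 members falling after knockdown, 0 to 1 rising and 6 to 20 falling with CPX, and 0 to 2 lower for the difference. A log2 value of a member changed sign in 41 cases, 4 with an adjusted p under 0.05 in either fit and 37 with neither; 1 was on a called value, the difference for Pmm2. With length and GC content taken out, knockdown gave 0.45 for Alg13, -0.21 for Stt3b, -0.23 for Man1b1 and -0.04 for Alg1, CPX gave 0.10 for Pmm2, and the difference was -0.05 for Stt3b and 0.01 for Alg13. Knockdown by limma on RPM, and in the fit of all 8, gave 0.01 for Ddost and Alg13 and 0.06 for Mogs, and with upper quartile scaling -0.01 for Stt3b and -0.06 for Alg1. Quantile scaling gave -0.02 for Alg1 (knockdown), -0.32 for Alg14, 0.02 for Tusc3 and 0.29 for Pmm2 (CPX), and -0.00 for Pmm2 and -0.14 for Magt1 (difference). Median ratio scaling gave 0.14 for Pmm2 (CPX) and -0.03 for Magt1 (difference), and TMM scaling 0.12 for Pmm2 (CPX). Leaving out each library, the knockdown values ran from -0.03 to 0.07 for Alg1, -0.30 to 0.00 for Alg12, -0.13 to 0.03 for Mogs and -0.01 to 0.15 for Stt3b. The CPX values ran from -0.08 to 0.34 for Alg13, -0.09 to 0.29 for Dpm1, -0.24 to 1.24 for Dpm2, -0.07 to 0.05 for Pmm2 and -1.01 to 0.10 for Srd5a3, and the differences from -0.33 to 0.09 for Alg13, -0.96 to 0.51 for Dpm2 and -0.59 to 0.53 for Srd5a3. The cause was not tested. Some members not called after knockdown passed in other fits. By limma on RPM, Stt3b (0.19, adjusted p = 0.0404), Alg8 (0.35, 0.0101), Dad1 (0.30, 0.0398) and Man1b1 (0.26, 0.0376) passed as higher. With length and GC content taken out (limma, adjusted p), Stt3b (0.0328), Ddost (0.0142) and Mogs (0.0205) passed as lower, and Alg13 (0.0224) and Alg8 (0.0051) as higher. Stt3b therefore passed both ways. Ddost passed as lower with upper quartile scaling (edgeR, 0.0242). With the replicate number as a replicate block, 13 members rose and 9 fell after knockdown, 0 rose and 19 fell with CPX, and the difference was higher for 20 and lower for 1. In those fits 32.7% of all genes rose and 30.8% fell after knockdown, and 22.4% rose and 26.9% fell with CPX. For the difference 35.2% were higher and 16.2% lower. With the block, Alg11 passed as lower in both experiments (adjusted p = 0.024 by edgeR and 0.0207 by limma) and Alg8 as higher after knockdown (edgeR, 0.0343). The calls of the difference for Pmm1 (limma, 0.0579) and Pmm2 (0.0748) were lost. The labels do not say what a shared number means, and the deviations of same-numbered libraries correlated at 0.289 (knockdown) and 0.101 (CPX) over 2 pairs. Rows with fewer than 10 in every library could not be matched uniquely, so the fit without a filter still required 10 in 1 library. The original depth of the CPX libraries is unknown, which limits the lowest values (Dolk, Mpi, Alg14 and Alg6).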
